A study of Bos taurus with 4 samples.

Results

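The structural genes of the muscle fibre were compared between 2 cattle breeds in the semitendinosus, a hind-limb muscle. The list held 44 genes of the sarcomere scaffold and of the dystrophin complex, chosen by symbol. A gene was taken as measured where the accession of at least 1 probe on the array led to its symbol in RefSeq (ARS-UCD2.0). That gave 85 probes for 30 of the 44 genes, among 43653 probes in all, of which 23492 had a symbol, for 11054 genes. The thin filament held 13 measured genes of 14 (36 probes), the Z-disc 6 of 13 (20 probes), the M-band group 3 of 5 (12 probes), and the costamere 8 of 12 (17 probes). No probe was found by this rule for TTN, NEB, DMD, UTRN, PLEC, FLNC, SNTB1, MYOM3, MYPN, PALLD, ANKRD2, ANKRD23, XIRP1 and XIRP2, so titin, nebulin and dystrophin themselves were not analysed here. Each of the 7 genes KLHL40, LMOD3, CAPZB, TCAP, DAG1, SGCA and SGCD had 1 probe, and TPM1 had the most, 8.

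The sarcomere is the repeating unit of the myofibril. Actin thin filaments are anchored at the Z-disc by their barbed ends, capped there by the CapZ proteins, and run toward the middle of the unit, where tropomodulins cap their pointed ends and leiomodins promote their growth. Myosin thick filaments are cross-linked at the M-band by myomesins. Costameres tie the Z-discs of the outermost myofibrils to the cell membrane through desmin filaments and the dystrophin complex, and defects in these proteins are known causes of muscular dystrophy and cardiomyopathy.

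The samples came from 4 Hereford (HER) bulls, a beef breed, and 4 Holstein-Friesian (HF) bulls, a dairy breed that served as the reference. All 8 bulls were 15 months old and received no treatment that the labels name. Total RNA of 1 HER and 1 HF bull was hybridised together on each of 4 dual-colour arrays, all on 1 slide, so each array gave 1 ratio between breeds, from a different pair of bulls. The pieces came from the centre of the muscle, with connective tissue and fat trimmed off according to the methods, but remain a mixture of cells, and with bulk RNA fewer cells of a type and less RNA per cell cannot be told apart.

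Values are log2 ratios of the Cy5 over the Cy3 signal, and their sign does not settle the breed. The dye labels give Cy3 to HER and Cy5 to HF, which would make a positive value higher in HF. The same labels remark that dyes were exchanged so that HF became the reference, and the study's own tables run with the sign that makes a positive value higher in HER. Directions are therefore given by dye, "higher in Cy5" or "lower in Cy5". All arrays had 1 dye orientation, so a probe's own dye preference and the breed cannot be told apart.

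Between arrays the median signal was 129 to 160.5 in Cy5 and 77 to 138 in Cy3, over a background of 37 to 41, and 65.2% to 82.1% of probes were well above background in a channel. No spot was saturated. Over the 32608 probes tested, pairs of arrays correlated with r of 0.332 to 0.618, as a description across probes, against -0.205 to 0.532 over the 85 probes of the listed genes. All 85 passed the filter on dim probes, which asked for a signal well above background in 1 channel on every array. Each gene was represented by its brightest probe.

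Few of these genes differed between the breeds beyond the spread between pairs of bulls. By limma with Benjamini-Hochberg adjustment over all probes, 2 of the 30 genes passed an adjusted p of 0.05. Both, LMOD2 and TCAP, were higher in Cy5. That was 6.67% of the 30 genes, against 4.42% of the 9426 genes tested on the array, with 2.91% higher and 1.52% lower in Cy5, so the share lay near the background. At the level of probes, 5 of 85 passed (5.88%, against 3.31% of all tested probes, 1.96% higher and 1.35% lower): 3 of LMOD2 and 1 of TCAP higher, and 1 of TMOD1 lower (-0.05, near 0, under median centring in place of loess). Without adjustment 10 of the 30 genes had a p under 0.05, which was 33.3% against 28.3% of all genes. The median log2 ratio of the 30 genes was 0.02, with 16 above 0 and 14 below, and that of all genes was also 0.02. The median size of the log2 ratio, whatever its sign, was 0.27 for these genes and 0.17 for all genes. The listed genes were brighter (median log2 intensity of 14.32, against 8.93), and these sizes were not compared at like brightness.

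**Figure D1:**
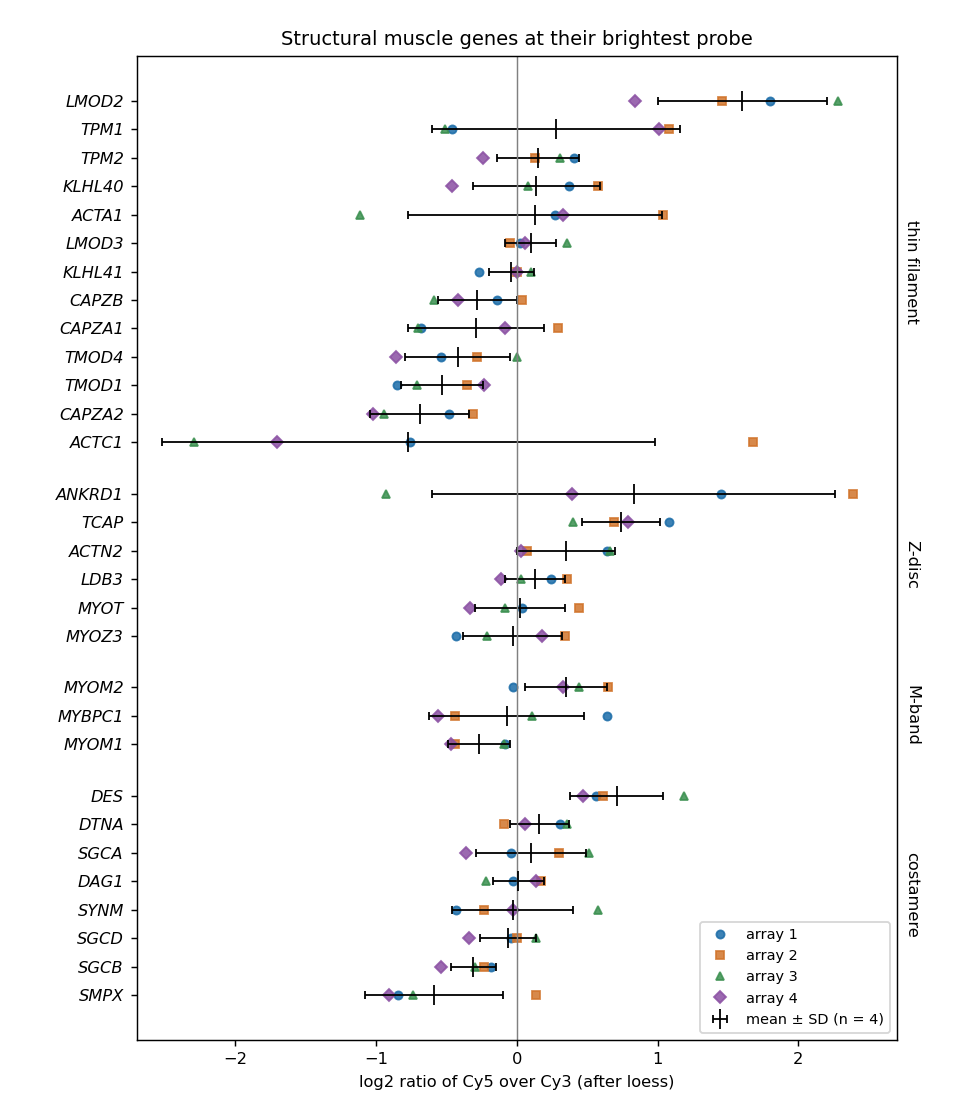
Log2 ratio of Cy5 over Cy3 of the 30 measured genes at their brightest probe, by structure; each symbol is 1 array (1 pair of bulls), and the bar and whiskers are the mean ± SD of 4 arrays. LMOD2, TCAP, DES and ACTN2 lie above 0 on all 4 arrays and TMOD1, CAPZA2, MYOM1 and SGCB below 0 on all 4, while ACTC1, ANKRD1, ACTA1 and TPM1 spread to either side; under median centring in place of loess, TMOD1, CAPZA2, MYOM1 and SGCB have means above 0.

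The largest difference among the called genes was in LMOD2, leiomodin 2, which starts and lengthens actin filaments from their pointed ends. Its log2 ratio at the brightest probe was 1.80 on array 1, 1.46 on array 2, 2.28 on array 3 and 0.84 on array 4. The Cy5 bull was thus the higher of the pair on every array. The mean was 1.60 ± 0.60 (SD, n = 4), which is 3.02-fold, with a 95% confidence interval of 1.04 to 2.15 and an adjusted p of 0.0349 by limma. The normalized log2 intensity of the Cy5 bulls was 14.93, 14.69, 14.26 and 14.34, and that of the Cy3 bulls 13.13, 13.23, 11.98 and 13.50. The lowest Cy5 bull was above the highest Cy3 bull. The bulls did not overlap, in either direction, for 4 of the 30 genes and for 15.9% of all genes, and the Cy5 bulls were the higher for 3 of the 4 (LMOD2, TCAP and DES) and the lower for TMOD1. The other LMOD2 probes gave 1.15 (adjusted p of 0.0281) and 1.10 (adjusted p of 0.0401), so all 3 passed. For the probe at 1.10 the 2 sets of bulls overlapped, between 9.96 and 10.91 in Cy5 and between 8.68 and 10.16 in Cy3.

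LMOD3, the other leiomodin of the list, has the same activity in skeletal fibres. Its log2 ratio was 0.02, -0.05, 0.36 and 0.06, with a mean of 0.10 ± 0.18 (n = 4) and an adjusted p of 0.595 by limma. Its 95% interval, -0.14 to 0.33, lay below that of LMOD2, though the difference between these genes was not tested. KLHL40 and KLHL41, kelch proteins that stabilise thin-filament proteins, had means of 0.14 and -0.04. The second KLHL41 probe averaged -0.32 and was below 0 on all 4 arrays (adjusted p of 0.135 by limma). Under median centring the brightest KLHL41 probe stood at 0.84.

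The pointed-end caps had means below 0 after loess and, at the brightest probes, above 0 under median centring. In that setting the median of all tested probes was itself above 0, at 0.24, and that of the brightest 10% was 0.74. TMOD1, tropomodulin 1, was at -0.85, -0.35, -0.71 and -0.23 at its brightest probe, with a mean of -0.53 ± 0.29 (n = 4) and an adjusted p of 0.0734 by limma. Its second probe gave -0.74, -0.37, -0.64 and -0.45, a mean of -0.55 ± 0.17 (n = 4) and an adjusted p of 0.0439, the only probe of a listed gene that was called lower in Cy5. At both probes the 4 Cy5 bulls lay below the 4 Cy3 bulls: between 8.66 and 8.98 against 9.22 and 9.43 for the second. Under median centring the brightest probe stood at 0.25, on the other side of 0, and the second at -0.05. TMOD4, the tropomodulin of adult skeletal muscle, was at -0.54, -0.28, 0.00 and -0.86, with a mean of -0.42 ± 0.37 (n = 4, adjusted p of 0.157 by limma), and at 0.47 under median centring.

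At the opposite end of the filament, none of the 3 CapZ genes passed the test. CAPZA2 came nearest, with -0.48, -0.31, -0.94 and -1.02 and a mean of -0.69 ± 0.35 (n = 4, adjusted p of 0.0589 by limma). Its second probe gave -0.67 (adjusted p of 0.0528). The bulls did not overlap at that second probe, with 12.35 to 12.65 in Cy5 and 12.72 to 13.47 in Cy3, and they did at the brightest. CAPZA1 had a mean of -0.29 and CAPZB of -0.28, with adjusted p of 0.389 and 0.238. Under median centring CAPZA2 stood at 0.09, CAPZA1 at 0.30 and CAPZB at 0.23. The files hold no probe sequences, so how far the probes of CAPZA1 and CAPZA2, of ACTA1 and ACTC1, or of TPM1 and TPM2, which are close relatives, bind each other's RNA is uncertain.

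**Figure D2:**
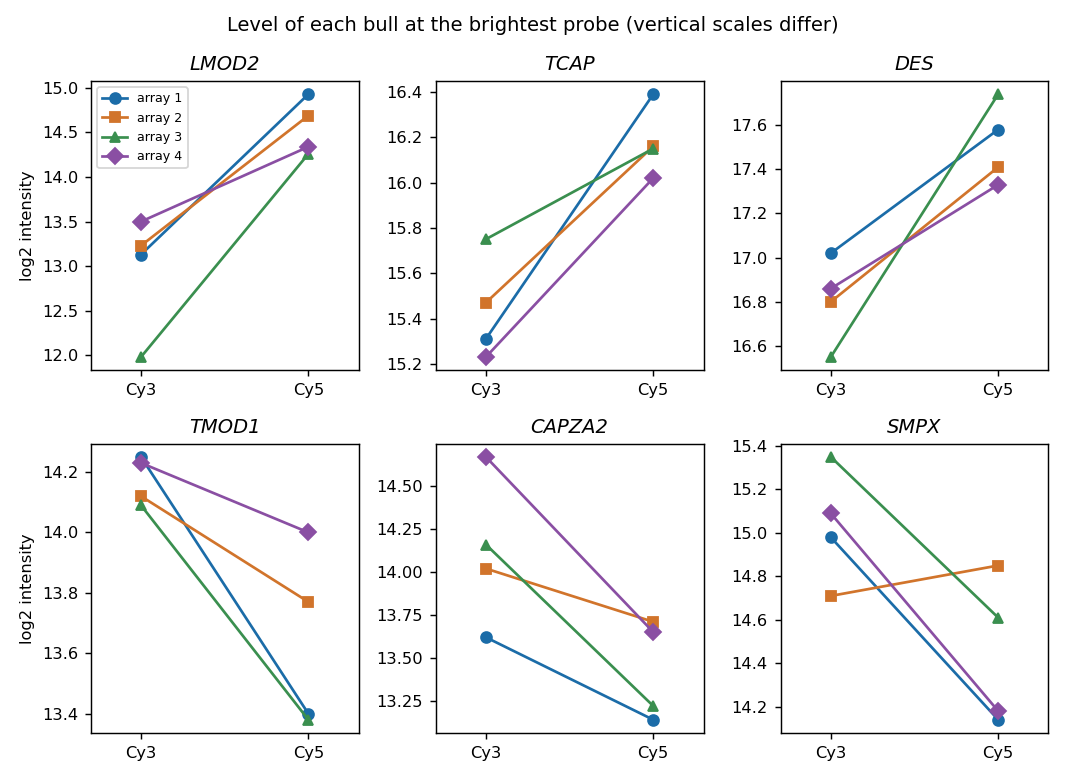
Normalized log2 intensity of each bull at the brightest probe of 6 genes, with the Cy3 and the Cy5 bull of 1 array joined by a line (vertical scales differ and do not start at 0). All 4 lines climb toward Cy5 for LMOD2, TCAP and DES and drop for TMOD1 and CAPZA2, whereas SMPX drops on 3 arrays and climbs on array 2; with median centring the mean ratios of TMOD1, CAPZA2 and SMPX are above 0.

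Among the actins and tropomyosins, the main body of the filament, ACTC1, ACTA1 and TPM1 differed widely from one pair of bulls to the next, and TPM2 less so. ACTC1, the cardiac actin that is also made in developing muscle, was at -0.76, 1.68, -2.29 and -1.70. Its SD of 1.75 (n = 4) around a mean of -0.77 (adjusted p of 0.507 by limma) was so wide that only 0.0743% of all genes had a wider one. The Cy5 bull of array 2 stood at 13.80 and the other 3 Cy5 bulls at 10.14 to 10.30, with the 4 Cy3 bulls at 10.91 to 12.55. The second ACTC1 probe gave the same order, from -2.28 on array 3 to 2.15 on array 2.

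ACTA1, the actin of adult skeletal muscle, was at 0.27, 1.04, -1.11 and 0.33, with a mean of 0.13 ± 0.90 (n = 4, adjusted p of 0.847 by limma). All 4 of its probes were lowest on array 3, between -1.84 and -1.11, and their means ran from -0.45 to 0.13. TPM1, the alpha-tropomyosin that lies along actin and moves with the troponins, was at -0.46, 1.08, -0.51 and 1.01, with a mean of 0.28 ± 0.88 (n = 4, adjusted p of 0.645 by limma). All 8 TPM1 probes were below 0 on array 1 (-0.67 to -0.43) and array 3 (-0.90 to -0.51), and above 0 on array 2 (0.74 to 1.08) and array 4 (0.27 to 1.01). The TPM1 ratios thus had opposite signs on different arrays, and the mean over them does not describe any pair. Each pair was on 1 array, so a difference between bulls and one between hybridisations cannot be told apart. TPM2, the beta-tropomyosin, had less spread, at 0.41, 0.13, 0.31 and -0.24 (mean 0.15 ± 0.29, n = 4, adjusted p of 0.515 by limma), with probe means from -0.40 to 0.15.

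**Figure D3:**
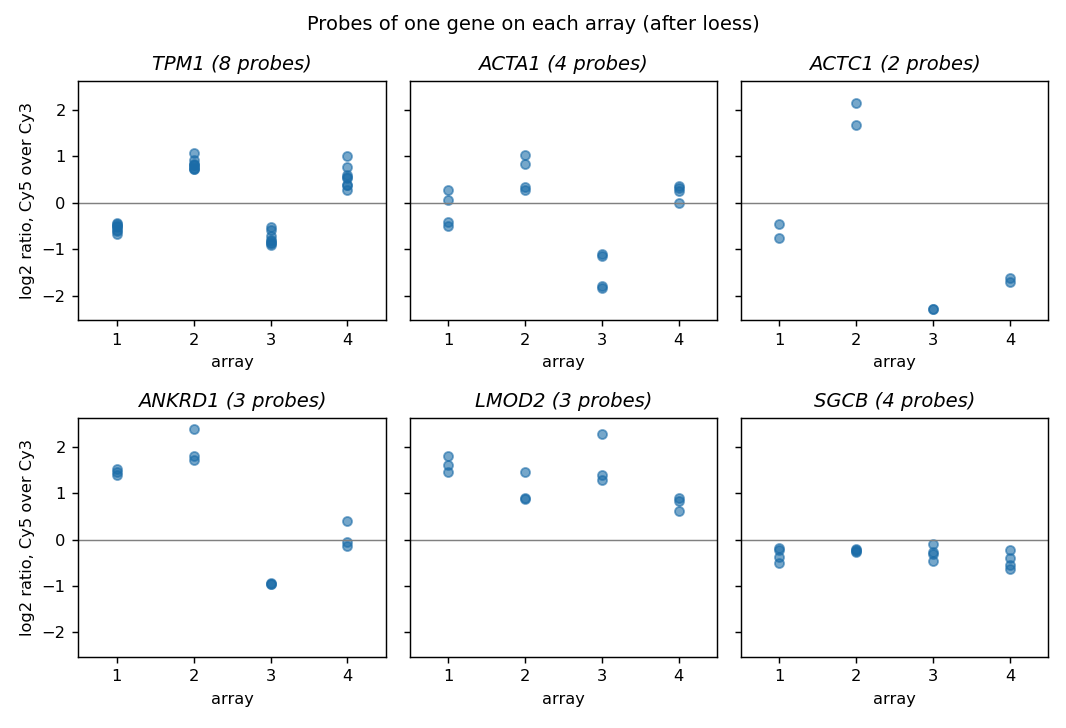
Log2 ratio of Cy5 over Cy3 after loess on arrays 1 to 4 for every probe of 6 genes; each point is 1 probe. Probes of TPM1, ACTC1 and ANKRD1 move together from array to array, with opposite signs on different arrays, while all LMOD2 probes are above 0 and all SGCB probes below 0 on the 4 arrays; the mean of the brightest SGCB probe is above 0 under median centring.

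In the Z-disc, TCAP was the called gene. It encodes telethonin, which joins the ends of titin molecules at the Z-disc. Its 1 probe gave 1.08, 0.69, 0.40 and 0.79, with a mean of 0.74 ± 0.28 (n = 4), which is 1.67-fold, and an adjusted p of 0.0426 by limma. The Cy5 bulls were at 16.39, 16.16, 16.15 and 16.02 and the Cy3 bulls at 15.31, 15.47, 15.75 and 15.23, with no overlap.

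ANKRD1, an ankyrin-repeat protein that binds titin and responds to stretch and stress, had a slightly larger mean and a far larger spread. Its values were 1.45, 2.39, -0.93 and 0.39, with a mean of 0.83 ± 1.43 (n = 4) and an adjusted p of 0.382 by limma. Array 3 was below 0 at all 3 probes (-0.96 to -0.93) and arrays 1 and 2 above 1 at all 3. Only 0.244% of all genes had a larger SD.

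The remaining Z-disc genes had small means. ACTN2, the alpha-actinin that cross-links actin in the Z-disc, was at 0.64, 0.07, 0.66 and 0.03 (mean 0.35 ± 0.35, n = 4, adjusted p of 0.204 by limma), and its dimmer probes averaged between -0.11 and -0.07. LDB3, a PDZ-LIM protein bound to alpha-actinin, was at 0.24, 0.36, 0.03 and -0.11 (mean 0.13 ± 0.21, n = 4, adjusted p of 0.487), and its other probes averaged between -0.53 and -0.30. MYOT, myotilin, another cross-linker of actin, was at 0.04, 0.44, -0.08 and -0.33 (mean 0.02 ± 0.32, n = 4, adjusted p of 0.959), with probe means from -0.29 to 0.02. MYOZ3, which binds alpha-actinin and calcineurin, had a mean of -0.03. The Z-disc median of 0.24 over 6 genes thus rests on brightest probes that stood above the other probes of the same gene.

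The 3 genes of the M-band group had means on either side of 0, and none passed. MYOM2, the myomesin of fast fibres, was at -0.03, 0.65, 0.44 and 0.33 (mean 0.35 ± 0.29, n = 4, adjusted p of 0.158 by limma). A second bright probe gave 0.44, and the other probes -0.02 and -0.07. MYOM1, the general myomesin, was at -0.08, -0.44, -0.09 and -0.47 (mean -0.27 ± 0.22, n = 4, adjusted p of 0.186), with probe means from -0.45 to -0.21, but at 0.62 with median centring. MYBPC1, the slow myosin-binding protein C of the A-band, was at 0.64, -0.44, 0.11 and -0.56 (mean -0.07 ± 0.55, n = 4, adjusted p of 0.883). Its 5 probes did not agree: the brightest was above 0 on arrays 1 and 3, and the probe with the lowest mean, -0.49 ± 0.21 (n = 4, adjusted p of 0.0594), was below 0 on all 4.

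At the costamere, no gene passed the test. DES, desmin, the intermediate filament that ties neighbouring Z-discs together, came nearest. It was at 0.56, 0.61, 1.19 and 0.47, with a mean of 0.71 ± 0.33 (n = 4), 1.63-fold, and an adjusted p of 0.0533 by limma. The 4 Cy5 bulls (17.33 to 17.74) lay above the 4 Cy3 bulls (16.55 to 17.02). This held for the brightest probe alone: the other 3 DES probes averaged between 0.11 and 0.25, were below 0 on array 4, and had overlapping bulls. SYNM, synemin, which joins desmin filaments, was at -0.43, -0.23, 0.58 and -0.03 (mean -0.03 ± 0.43, n = 4, adjusted p of 0.941), and its second probe averaged 0.27.

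Of the dystrophin complex, the beta-sarcoglycan gene SGCB was lower in Cy5 on every array at all 4 of its probes after loess, while its brightest probe averaged 0.39 under median centring. The brightest probe gave -0.18, -0.23, -0.30 and -0.54, with a mean of -0.31 ± 0.16 (n = 4), 1.24-fold, and an adjusted p of 0.107 by limma. The 4 probe means lay between -0.36 and -0.31, and the lowest adjusted p was 0.0653. The partners of SGCB in the membrane had means close to 0. SGCA (alpha-sarcoglycan) averaged 0.10, SGCD (delta-sarcoglycan) -0.06, DAG1 (dystroglycan, the link to the matrix) 0.01 and DTNA (alpha-dystrobrevin, a cytoplasmic partner of dystrophin) 0.16.

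SMPX, a small protein of the costamere linked to mechanical load, was at -0.84, 0.14, -0.74 and -0.91, with a mean of -0.59 ± 0.49 (n = 4) and an adjusted p of 0.129 by limma, and at 0.24 under median centring. Array 2 stood apart at both of its probes, at 0.14 and 0.10. Across the list, 16 of the 30 genes had a 95% interval inside ±0.58 on the log2 scale (1.5-fold) at the brightest probe after loess. Among them were SGCA, SGCB, SGCD, DAG1, DTNA, SYNM, LDB3, MYOT and TPM2. Dimmer probes of some reached beyond it, among others of LDB3 (-0.91 to -0.15), MYOT (-0.83 to 0.25), SYNM (-0.29 to 0.84) and TPM2 (-0.72 to -0.08). The count was not set against a share of all genes. The intervals at the brightest probes hold after loess. Under median centring the means of 12 of the 16 lay beyond ±0.58, TPM2 at 1.12 and LDB3 at 1.09 among them. The median of the brightest 10% of all tested probes was itself 0.74 in that setting.

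**Figure D4:**
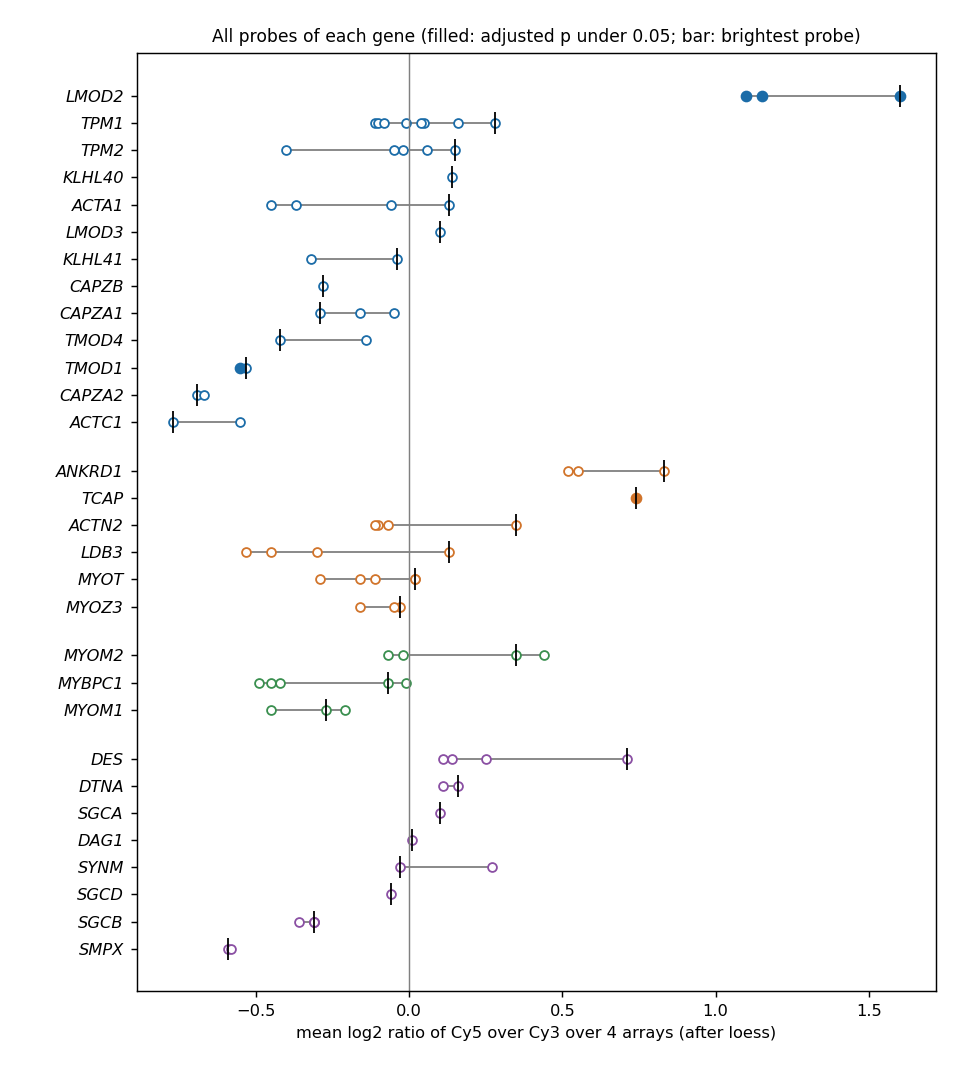
Mean log2 ratio of Cy5 over Cy3 of all 85 probes over 4 arrays, by gene, after loess; filled points passed an adjusted p of 0.05 by limma and the vertical bar marks the brightest probe. The 5 filled points belong to LMOD2, TCAP and TMOD1, and in DES, LDB3 and ACTN2 the brightest probe lies to the right of the others; the brightest TMOD1 probe is above 0 under median centring.

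Probes of a gene did not always give the same answer. Of the 23 genes with over 1 probe, 8 had probe means on both sides of 0 (MYOM2, ACTN2, LDB3, MYOT, SYNM, ACTA1, TPM1 and TPM2), and in 5 the means spanned over 0.5. In 17 of the 23 (73.9%) the brightest probe was above the median of the gene's other probes, by a median of 0.15, against 56.3% of the 5740 genes on the array with over 1 probe, by 0.03. LMOD2 at 1.60, 1.15 and 1.10, TMOD1 at -0.53 and -0.55, CAPZA2 at -0.69 and -0.67, SMPX at -0.59 and -0.58, and SGCB had probes of 1 sign.

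The sign of many means rested on the normalization. These genes are bright: 23 of the 30 were in the brightest 10% of tested probes, where Cy5 signals ran above Cy3 signals before loess. Where each array was centred on its median without loess, the median of all tested probes was 0.24 and that of the brightest 10% was 0.74. The 30 genes then had a median of 0.80, 28 were above 0, and 26 above the median of all tested probes. Against the brightest 10%, 16 of 30 were above its median. With median centring 20 genes were called, all higher in Cy5, in a setting that called 32.9% of all tested probes, 30.7% higher. The share of all calls that were higher went from 59.3% to 93.4%. LMOD2 at 2.38, TCAP at 1.63, DES at 1.67 and ANKRD1 at 1.72 remained the highest of the list, and CAPZA2 at 0.09, DAG1 at -0.01 and ACTC1 at -0.12 were the lowest.

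**Figure D5:**
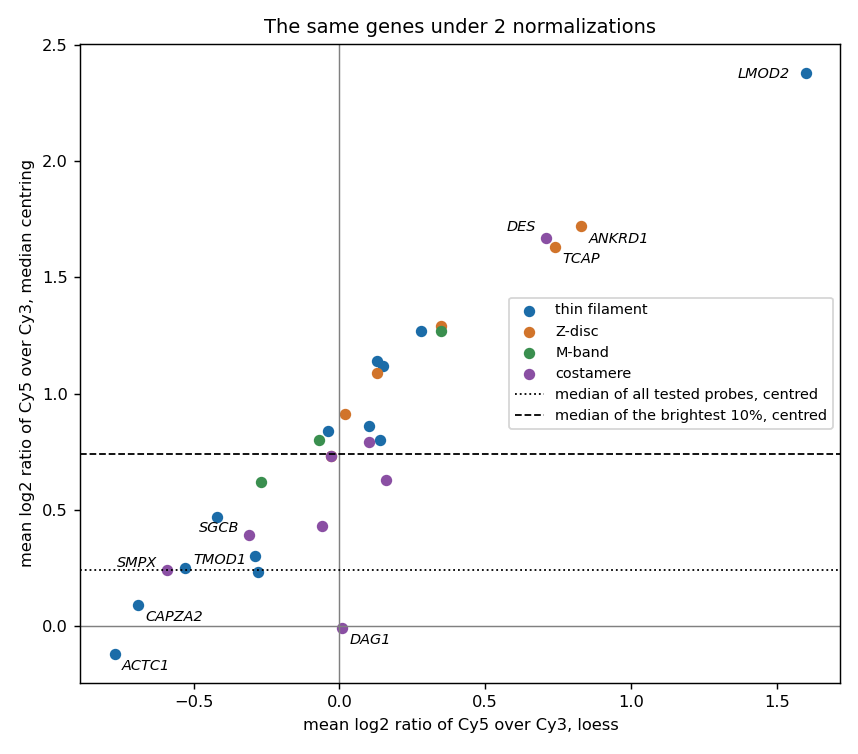
Mean log2 ratio of Cy5 over Cy3 of the 30 genes after loess (horizontal) and after median centring (vertical), coloured by structure; dotted and dashed lines mark the centred medians of all tested probes and of the brightest 10%. LMOD2, ANKRD1, DES and TCAP are the 4 highest on both axes, 28 of 30 genes lie above 0 when centred, and 14 change sign, TMOD1, CAPZA2, SMPX and SGCB among them.

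The study had asked for p no greater than 0.05 and for 1.3-fold or more. Taken with limma's unadjusted p, 7 of the 30 genes met that, 3 higher and 4 lower in Cy5. That was 23.3%, against 17.8% of all genes (10.6% higher and 7.18% lower). With median centring the counts were 22 higher and 0 lower, where 37.4% of all tested probes were higher and 3.96% lower. Under loess, 8 of 30 genes had the same direction on all 4 arrays (26.7%), against 34.2% of all genes.

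The median SD between pairs of bulls was 0.34 for these genes and 0.23 for all genes. Some of the list, SGCB and KLHL41 among them, varied less than most genes. The listed genes are also brighter (median log2 intensity of 14.32, against 8.93), and their SD was not set against that of genes of like brightness. An SD over 0.7 was found for ACTC1, ANKRD1, ACTA1 and TPM1, 4 of 30 genes (13.3%), against 4.54% of all genes. The fibre-type markers, chosen by function, varied between arrays as well. The 8 measured slow-fibre genes had a median log2 ratio of 1.75 on array 1, -0.92 on array 2, -0.28 on array 3 and -0.45 on array 4, and MYH7, the slow myosin heavy chain, was at 2.16, -1.02, -0.04 and -0.25. The 9 measured fast-fibre genes had medians of -0.03, 0.37, -0.19 and 0.36, but the genes of this list did not move together. MYH1, at -0.12, 1.18, -0.61 and 0.36, had the signs of the TPM1 probes, and MYH2, at 0.67, -0.19, 1.87 and 0.37, did not. ATP2A1 was above 0 on all 4 arrays, and TNNT3 and CASQ1 were below 0 on all 4. Slow-fibre genes were thus highest on array 1, where the brightest MYBPC1 probe (0.64) and a dimmer one (0.13) were also at their highest. Other probes of the same gene, at -0.13 and -0.30 on array 3, were highest on that array. The part of fibre type in these results was not tested.

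Other cell types were looked at through fixed marker lists. All 8 general muscle-fibre markers (CKM, MB and ATP2A1 among them) were measured, with a median of 0.21 and none called. Of the 7 fibroblast markers, COL1A1 (-2.05; adjusted p of 0.029 by limma) and COL3A1 (-1.68; adjusted p of 0.0368) were lower in Cy5, also under median centring (-1.32 and -0.90). The list's median was -0.77, from -1.09 on array 4 to -0.42 on array 2, but 3 of the 7 were above 0, FBLN1 at 0.88, PDGFRA at 0.49 and DCN at 0.42, none of them called. Of 6 smooth-muscle markers, CNN1 was lower (-0.79, adjusted p of 0.0364, and -0.20 under median centring), while 4 of the 6 were above 0 and the median was 0.19. Of the 8 slow-fibre genes, MYL3 was lower (-1.50, adjusted p of 0.0401, and -0.69 under median centring), and 4 of the 8 were above 0. No measured gene of the fast-fibre (9), adipocyte (5, median -0.67), endothelial (5), macrophage (4) or blood (2) lists was called by limma at an adjusted p of 0.05. In the same order, 4, 2, 0, 2 and 0 of them had an unadjusted p under 0.05, as did 28.3% of all genes. The part of cell-type content in the results on structural genes was not tested.

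The rest of the same structures gave a like picture. A further 85 genes of the Z-disc, M-band, thin filament and costamere were listed by function, and 59 of them had a tested probe. By limma 2 were higher and 2 lower in Cy5 (6.78% of the 59, against 4.42% of all genes), and the median was -0.02. SSPN, sarcospan, a membrane protein of the dystrophin complex, was at -0.64, -0.94, -0.73 and -0.63, with a mean of -0.74 ± 0.14 (n = 4, adjusted p of 0.0286), and at -0.11 under median centring. PDLIM5, a PDZ-LIM protein of the Z-disc, was at -0.98, -0.64, -0.74 and -0.56, with a mean of -0.73 ± 0.18 (n = 4, adjusted p of 0.0324), but at 0.12 under median centring. FHL2, a LIM protein that binds titin near the M-band, was at 0.57, 0.67, 0.50 and 1.02, with a mean of 0.69 ± 0.23 (n = 4, adjusted p of 0.0412). ACTN1, an alpha-actinin of non-muscle cells, was at 0.62, 0.33, 0.45 and 0.64, with a mean of 0.51 ± 0.15 (n = 4, adjusted p of 0.0453). With the mean over a gene's probes in place of the brightest, FHL2 (0.46, adjusted p of 0.0597) and ACTN1 (0.28, adjusted p of 0.106) were not called.

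Next came 2 genes that did not pass. FHOD3, a formin that assembles actin in sarcomeres, averaged -0.74 ± 0.34 (n = 4, adjusted p of 0.0528 by limma), and TRIM63, the muscle ubiquitin ligase MuRF1, averaged 1.27 ± 0.68 (n = 4, adjusted p of 0.0558). TRIM63 was above 0 on all 4 arrays and FHOD3 below 0 on all 4. In the other thin-filament genes none of 9 was called, in the Z-disc 2 of 17, in the M-band 1 of 8 and in the costamere 1 of 25.

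With 3 arrays few genes of any kind were called. Over all tested probes the calls fell from 1078 to 115, 38, 5 and 5 without arrays 1 to 4, and no listed gene was called by limma in any of these fits. The mean of LMOD2 then lay between 1.37 and 1.85 (adjusted p of 0.0594 to 0.113) and that of TCAP between 0.63 and 0.85 (adjusted p of 0.0713 to 0.134). The 4 arrays limit the precision of every value here, and the p-values measure the spread between 4 pairs of bulls.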

How the data were processed

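Total RNA of semitendinosus muscle (4 HER and 4 HF bulls) had been labelled with Cy3 or Cy5 and hybridised to 4 Agilent arrays. The deposited intensity values, read per the file headers by Feature Extraction 10.7.3.1, were the median signal and median local background of each spot. The log10 ratios of the series table, as deposited, equalled the software's own log ratios (background-subtracted, detrended and dye-normalized); no value differed between them, and the median was 0 on each array.

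From the median signals, background was corrected by normexp (offset 50). Loess was fitted within arrays, giving control spots weight 0, spots marked as outliers (7 to 14 per array) were dropped, and replicate spots of a probe were averaged. Log2 ratios against 0 were tested by limma 3.58.1 in R 4.3.3, on 32608 probes well above background in 1 channel on all 4 arrays, with Benjamini-Hochberg adjustment over all of them. The mean of at least 3 arrays was required. Levels per bull came from loess followed by Aquantile scaling. A gene stands at its brightest probe.

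The script was tested on simulated data. Genes were named through RefSeq accessions (ARS-UCD2.0). The array design and that table come from different builds, so no coordinates are given. Probe, promoter and protein sequences were not used here.

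The listed genes and the marker lists were chosen with earlier results of these data known. Full values are given for genes with a called probe, for the 10 with the smallest adjusted p, and for those whose probes lie on both sides of 0. ACTC1, ANKRD1, MYBPC1, LMOD3 and the other listed genes were named by the same rule's allowance for every listed gene. Of the other structural genes, the called ones and up to 6 with the smallest p are named.

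Alternatives covered the background correction, the scanner's processed values, median centring, the filter, the variance model, a fit of separate channels, the methods' t-test, the probe that stands for a gene, and each array left out. The slide and the dye orientation were the same on all arrays, so no batch could be set as a block.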

Additional observations from a re-analysis of the deposited data

Results flagged for a closer look

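SMPX had 1 pair of bulls apart from the others. Its log2 ratio of Cy5 over Cy3 was 0.14 on array 2 and between -0.91 and -0.74 on the other 3, so the gap to the nearest array took a share of 0.843 of the whole range. Of the 17 genes looked at in this way it was the only 1 past Dixon's limit, and chance marks about 1 gene in 20. Its second probe was at 0.10 on array 2 and between -0.89 and -0.75 on the others.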

How the results depend on the processing

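The calls were few and close to the threshold. Against 2 called genes, 5 called probes and 4 called genes of the other structural list, the scanner's processed signals gave 1 gene (LMOD2) and 3 probes, as did the series table. Over all tested probes these settings called more, 4.27% against 3.31% in the fit reported above. The separate-channel fit gave 4 genes (3 higher and 1 lower in Cy5), 11 probes and 8 other genes, and it called 9.84% of all tested probes. Median centring gave 20, 43 and 36, all higher, where 30.7% of all tested probes were called higher. The methods' t-test with Benjamini-Hochberg adjustment gave 0 in each. At the study's threshold that t-test gave 3 genes higher and 2 lower, where 5.06% of all tested probes were higher and 3.79% lower. The study's criterion with limma gave 7 genes and 20 probes, where 7.96% of all tested probes were higher and 6.48% lower. With each gene at the mean of its probes, 2 other genes were called, both lower. Without any 1 array the count was 0 in each, while 8 to 11 of the 30 genes had an unadjusted p under 0.05. The matching share of all genes in those fits was not taken, so the 8 to 11 cannot be read as a surviving signal. With all 4 arrays 10 of the 30 genes had an unadjusted p under 0.05, against 28.3% of all genes. LMOD2 was called in 10 of 11 alternatives that kept all arrays (adjusted p of 0.209 by the methods' t-test), TCAP in 8 and DES in 5. The scanner's signals and the series table are counted separately among the 11, though they gave the same values.

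Of the 26 single values followed, those that changed sign under median centring were TMOD1 (0.25), CAPZA2 (0.09), SGCB (0.39), SMPX (0.24), TMOD4 (0.47), MYOM1 (0.62), SYNM (0.73) and PDLIM5 (0.12). Over all 30 listed genes 14 did. The centred median was 0.24 for all tested probes and 0.74 for the brightest 10%, so a value just above 0 was not high for that setting. MYOT became -0.01 and SYNM 0.02 with the scanner's signals and with the series table. With the mean over all probes MYOT was at -0.10, TPM2 at -0.05, LDB3 at -0.28, ACTA1 at -0.19 and SYNM at 0.12. Without array 1 SYNM was at 0.10, and without array 2 at 0.04. Leaving out 1 array at a time, SYNM ran from -0.23 to 0.10, MYOT from -0.12 (without array 2) to 0.13 and ACTA1 from -0.17 (without array 2) to 0.55. In all, 279 of 387 single values kept their direction and their side of the threshold, 60 were weaker, 27 stronger and 21 of opposite sign. The 387 also count the scanner's signals and the series table separately. The cause of the changes was not tested. The test of the 4 ratios against 0 is itself paired by array, and with 1 group there was no further block to add.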
